A study of Homo sapiens with 3 samples.

Results

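The genes described here encode the SR proteins and the heterogeneous nuclear ribonucleoproteins (hnRNPs), the main families of RNA-binding proteins that decide which exons of a pre-mRNA are joined. Their mRNA levels were followed in 293T, a line derived from human embryonic kidney, in cells made to express dCas9-VP64. This protein joins a Cas9 without cutting activity to a transcriptional activator. The 3 groups shared this fusion protein and differed in the guide RNA, which was sgL1ASP #1, sgL1ASP #3 or mock, the mock being a vector with no L1 guide. In the other assays of the study the plasmids were transiently transfected, so the cells of a culture need not all carry them, and when the RNA was taken is not given in the sources used here. Both sgL1ASP guides target the antisense promoter (ASP) of the retrotransposon LINE-1 (L1), and the question was which genes change when that promoter is activated. Each group had 1 library, so no difference below has a replicate check, no test was run, and the effect of a guide and the difference between any 2 cultures cannot be told apart. In bulk samples, fewer cells and less RNA per cell cannot be told apart either.

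Members were taken by name alone. The deposited values list 23284 gene names in every library, and 32 of them are SRSF followed by a number (12 genes) or begin with HNRNP (20 genes). Names with a hyphen and names of numbered pseudogenes, 5 in all, were left out. The values are FPKM (fragments mapped, divided by exon length and by the size of the library), a level per transcript length, so levels of different genes can be set side by side. Genes with low FPKM, taken to hold 1 read each, gave an estimated depth of 10400000 reads (mock), 10300000 (sgL1ASP #1) and 8700000 (sgL1ASP #3). The read numbers below rest on this estimate and on the length of 1 transcript per gene, and the standard errors made from them cover counting error only.

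SR proteins carry RNA recognition motifs and a tail rich in arginine and serine, bind enhancer sequences in exons, and help the spliceosome to find the neighbouring splice sites. The hnRNPs coat nascent transcripts, and many of them silence splice sites or loop exons out, so that SR proteins and hnRNPs often compete over the same exon. Most members of both families are made in nearly all tissues. Many of these genes limit their own product through alternative exons that bring in a stop codon too early, called poison exons, and send the transcript to nonsense-mediated decay (NMD).

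The annotation of the members, which the naming rule had not used, differed between the families in this feature. In GENCODE on GRCh37 (the sequence also known as hg19), 12 of the 12 SRSF genes and 12 of the 20 HNRNP genes (60.0%) have at least 1 transcript annotated as an NMD target. The share was 47.8% among the 10695 placed protein-coding genes with mean FPKM at least 1, and 52.3% among the 6224 with mean FPKM at least 10. An NMD transcript with an extra internal exon that overlaps no exon of the canonical transcript, and that holds the stop codon, was found for 7 SRSF genes (58.3%) and 2 of 20 HNRNP genes (10%). The background was 21.2% at mean FPKM of at least 1 and 22.8% at 10 or more, so the SRSF share lies above it and the HNRNP share below. The HNRNP share rests on 2 genes, and neither difference was tested. The median number of annotated transcripts was 10 for SRSF and 15.5 for HNRNP genes, against 8 and 9 in these backgrounds. HNRNPA2B1 stood out by number, with 35 NMD transcripts among its 49 annotated transcripts, but none of them has such an exon. The deposited values are per gene and pool all transcripts, so inclusion of these exons was not measured.

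The opening stretches of the exons of 6 of these 9 genes are shown because they mark where a transcript that includes the exon stops coding. HNRNPL, SRSF9 and SRSF12 are the others. For each gene the longest such exon was taken, and the stretch runs 5′ to 3′ on the gene's strand from the first base of the exon to the annotated stop codon, which is in capitals. The exons lie at chr6:36567598-36568053 (plus strand) for SRSF3, chr2:38976040-38976488 (minus) for SRSF7, chr20:42087793-42088060 (plus) for SRSF6, chr1:29492402-29492576 (minus) for SRSF4, chr1:70697542-70697658 (plus) for SRSF11 and chr5:179048844-179048977 (minus) for HNRNPH1, all in GRCh37.
SRSF3: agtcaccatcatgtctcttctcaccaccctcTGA
SRSF7: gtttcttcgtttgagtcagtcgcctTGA
SRSF6: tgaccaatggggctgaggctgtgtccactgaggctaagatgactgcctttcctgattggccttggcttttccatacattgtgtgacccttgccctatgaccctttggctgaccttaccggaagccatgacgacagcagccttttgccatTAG
SRSF4: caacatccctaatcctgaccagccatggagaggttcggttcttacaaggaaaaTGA
SRSF11: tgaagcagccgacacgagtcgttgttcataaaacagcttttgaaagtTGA
HNRNPH1: cgttggtaacggaaagcgacctgTAA
The stop codon ends at base 34 of the 456-base exon in SRSF3. It ends at base 28 of 449 in SRSF7, 152 of 268 in SRSF6, 56 of 175 in SRSF4, 50 of 117 in SRSF11 and 26 of 134 in HNRNPH1.

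Most members had high mRNA levels in these cells. The median FPKM over the 32 genes was 116.9 (mock), 119.3 (sgL1ASP #1) and 116.6 (sgL1ASP #3), and 21 of them were among the 1000 names with the highest FPKM in each library. FPKM was at least 10 for 28 members in every library, and the other 4 were SRSF8, SRSF12, HNRNPA1L2 and HNRNPCL1. SRSF genes summed to FPKM 1680.2 (mock), 1712.4 (sgL1ASP #1) and 1670.1 (sgL1ASP #3). HNRNP genes summed to 2808.9, 2845.5 and 2758.2 in the same libraries, so that the ratio of SRSF to HNRNP was 0.598, 0.602 and 0.606. As a share of the library's FPKM sum, SRSF genes made up 0.271%, 0.259% and 0.248%, and HNRNP genes 0.453%, 0.430% and 0.410%. These shares follow the sums of the libraries, which were 619902.5, 661448.6 and 673483.0, and in which the names with FPKM of at least 1000 held 222455.8, 258225.1 and 273923.6.

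**Figure D1:**
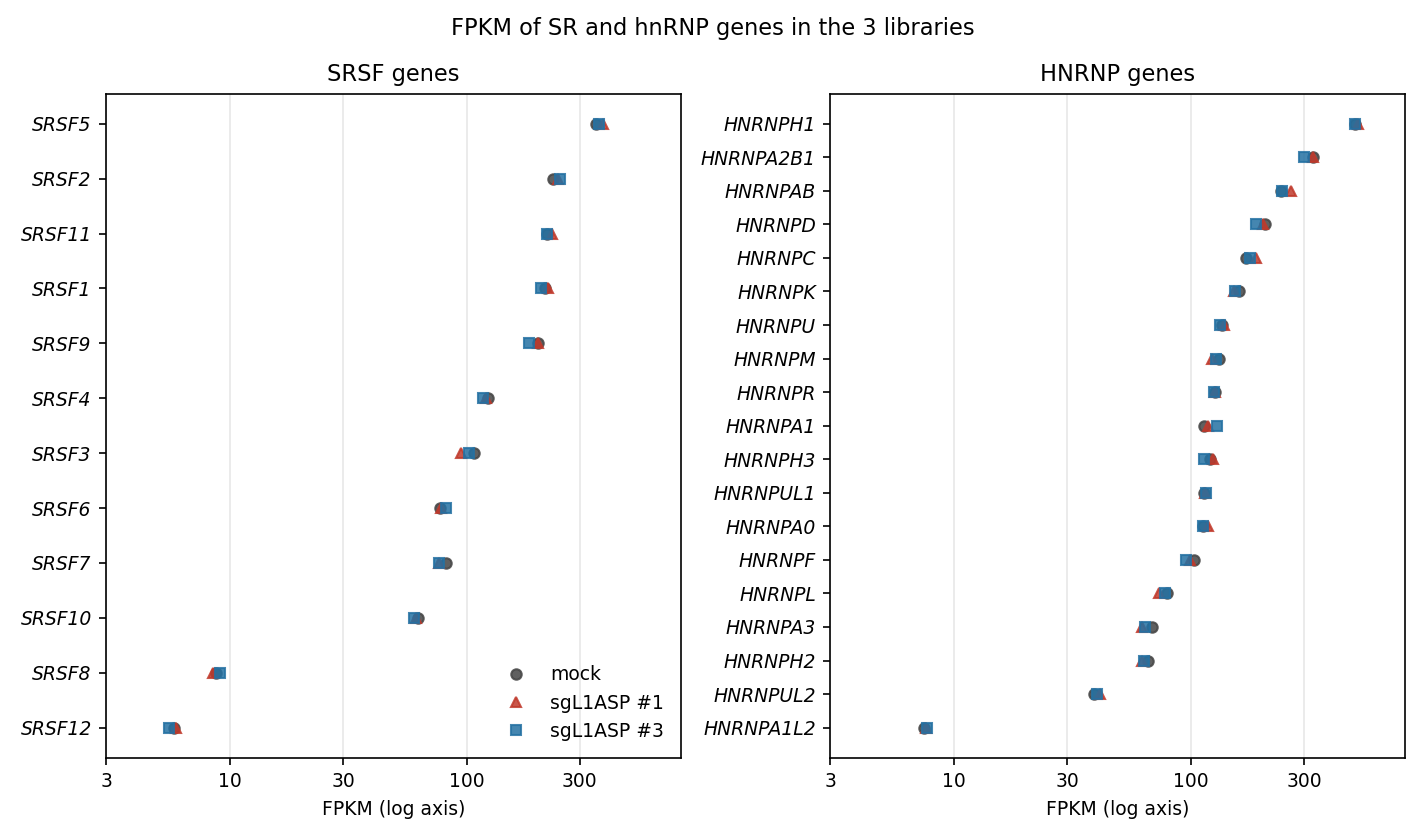
FPKM (log axis) of the 12 SRSF genes (left) and of 19 HNRNP genes (right) in mock (circles), sgL1ASP #1 (triangles) and sgL1ASP #3 (squares), ordered by mean FPKM, with 1 library per group and no error bars. HNRNPCL1, with FPKM under 0.0001, lies off the axis; for each gene the 3 symbols nearly cover each other while genes differ from FPKM 5.50 to 505.9.

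SRSF5, one of the classical SR proteins and the highest member of its family, is on chromosome 14 from 70193617 to 70238722. It had FPKM 351.2 (mock), 375.7 (sgL1ASP #1) and 362.2 (sgL1ASP #3). SRSF2, which binds exonic enhancers and is known as a marker of nuclear speckles, had FPKM 232.3, 244.0 and 248.8 in the same order. For both genes mock was the lowest library as deposited. With each library brought to the same FPKM sum, mock was no longer the lowest for either gene.

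SRSF11, an SR-related factor that contacts the proteins of the 3′ splice site, had FPKM 218.4 (mock), 229.3 (sgL1ASP #1) and 217.5 (sgL1ASP #3). SRSF1, the founding SR protein and a proto-oncogene product, had FPKM 213.0, 219.7 and 205.0. SRSF9 had 200.1, 199.5 and 183.6, with sgL1ASP #3 lowest. The ranges of SRSF11 and SRSF1 over the libraries overlap, but within each library SRSF11 was above SRSF1.

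In the middle of the family, SRSF4 had FPKM 122.9 (mock), 120.4 (sgL1ASP #1) and 117.6 (sgL1ASP #3). SRSF3, the smallest of the classical SR proteins and a factor that also couples splicing to mRNA export, had FPKM 107.1, 94.5 and 102.4. SRSF6, SRSF7 and SRSF10 had mean FPKM 78.8, 78.1 and 61.1. SRSF10 is known as a splicing repressor when it is dephosphorylated in mitosis and after heat shock. SRSF6 and SRSF7 overlapped in range. With SRSF11 and SRSF1 they are the 2 overlapping pairs among the 11 neighbouring pairs of the SRSF order.

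At the low end were SRSF8, an expressed retrocopy of SRSF2, with FPKM 8.74, 8.46 and 9.10, and SRSF12, a relative of SRSF10, with FPKM 5.78, 5.88 and 5.50. At the estimated depth, mock held about 204 reads of SRSF12 and about 373 of SRSF8. The 3 highest SRSF genes held 47.7% of the summed SRSF FPKM in mock and 49.6% with each guide.

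HNRNPH1, which binds runs of G, was the highest member of all, with FPKM 495.2 (mock), 505.9 (sgL1ASP #1) and 493.0 (sgL1ASP #3). It lies on chromosome 5 from 179041179 to 179061785 and ranked 132 among all names by mean FPKM. Its relatives of the F/H group were lower. HNRNPH3 had FPKM 119.9, 124.0 and 113.3 in the same order, HNRNPF had mean FPKM 99.0, and HNRNPH2, on the X chromosome, 63.6.

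HNRNPA2B1, a reader of UAG-like motifs that also sorts RNA for transport, had FPKM 326.5 (mock), 327.3 (sgL1ASP #1) and 300.5 (sgL1ASP #3). HNRNPAB had FPKM 240.3, 263.9 and 241.6, and was highest with sgL1ASP #1. HNRNPD, which binds AU-rich elements and promotes mRNA decay, had 204.8, 200.8 and 188.8, and was lowest with sgL1ASP #3.

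HNRNPC, which binds runs of U and keeps cryptic exons, among them those from Alu repeats, out of mRNA, had FPKM 170.4 (mock), 188.5 (sgL1ASP #1) and 177.0 (sgL1ASP #3). HNRNPK, which binds C-rich stretches through KH domains, had 158.8, 152.1 and 154.2. HNRNPU, a scaffold protein of the nuclear matrix, had FPKM 134.7, 137.9 and 132.4. HNRNPM, HNRNPR, HNRNPA1, HNRNPH3, HNRNPUL1 and HNRNPA0 followed between mean FPKM 127.1 and 114.2. Within this run of 6 genes each overlaps the next in range, while HNRNPA0 and HNRNPF after it do not overlap. With HNRNPA3 and HNRNPH2 there are 6 overlapping pairs among the 19 neighbouring pairs of the HNRNP order.

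The remaining HNRNP genes were HNRNPL, which binds CA repeats (mean FPKM 76.5), HNRNPA3 (64.7), HNRNPUL2 (40.1) and HNRNPA1L2 (7.57). HNRNPA3, of the A/B group, had FPKM 68.4, 62.2 and 63.7, with mock highest. HNRNPCL1, a copy of HNRNPC without introns in its coding part, is listed at FPKM 7.23e-05 (mock), 7.14e-05 (sgL1ASP #1) and 6.51e-05 (sgL1ASP #3). A single read on its transcript would give about FPKM 0.103, 0.104 and 0.123 at the estimated depths, so these entries stand for less than 1 read. It was the only member with mean FPKM under 1, and 31 of 32 members passed that filter.

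Some of these levels share reads with other copies in the genome. Every 75-base stretch (the read length) of each canonical transcript was searched in GRCh37 outside the gene and in the transcripts of genes elsewhere. Genes whose exons overlap those of the member on the same strand were counted apart. A perfect copy elsewhere was found for 41.8% of the stretches of HNRNPA1L2, 36.4% of HNRNPA1, 25.7% of HNRNPA3, 24.0% of HNRNPC and 23.8% of HNRNPCL1. HNRNPL (13%) and HNRNPK (9.9%) followed. In the SRSF family the highest share of copies elsewhere was 7.9%, in SRSF9, and 6 of the 12 genes had none. The median was 0.45% over the 20 HNRNP genes, 0.1% over the 12 SRSF genes and 0% over 113 genes of the related splicing lists described below, of which 5 exceeded 20%. Stretches of HNRNPA1 occur up to 13 times outside the gene. How reads with several matches were assigned is not given in the sources used here, so the levels of these 5 HNRNP genes are uncertain. The same holds for members whose stretches also lie in the transcripts of an overlapping gene. These were all stretches of HNRNPA1L2, 45.1% of HNRNPUL2, 28% of SRSF1, 23.5% of HNRNPL, 13.6% of SRSF6 and 13.1% of HNRNPH2.

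The first 75 coding bases of HNRNPC and HNRNPCL1 and of SRSF2 and SRSF8 are shown to let the likeness be seen, 5′ to 3′, with the bases that differ within each pair in capitals. They were read from GRCh37 on the coding strand.
HNRNPC: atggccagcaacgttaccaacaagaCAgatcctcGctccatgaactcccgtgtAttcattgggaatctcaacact
HNRNPCL1: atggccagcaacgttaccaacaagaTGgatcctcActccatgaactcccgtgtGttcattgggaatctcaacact
SRSF2: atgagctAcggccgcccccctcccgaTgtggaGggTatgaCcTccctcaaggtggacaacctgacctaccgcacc
SRSF8: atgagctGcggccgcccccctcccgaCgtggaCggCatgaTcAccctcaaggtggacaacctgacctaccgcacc
Over the aligned coding bases, HNRNPC and HNRNPCL1 were 94.8% identical (833 of 879), with a longest run of 73. SRSF2 and SRSF8 were 84.7% identical (554 of 654), with a longest run of 34. Neither pair has an identical coding run as long as a read. HNRNPA1L2 had FPKM 7.45 (mock), 7.60 (sgL1ASP #1) and 7.68 (sgL1ASP #3), about 89, 89 and 76 reads, beside FPKM 113.9, 118.1 and 128.3 for HNRNPA1.

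Between the libraries the members differed little. Changes were taken as differences of log2(FPKM + 0.1), which understates those of genes with low FPKM. With sgL1ASP #1 against mock, 0 of 31 members with mean FPKM at least 1 differed by more than 1.5-fold, against 3.55% of all 12830 names past the same filter. With sgL1ASP #3 against mock it was 0 of 31 against 3.8%, and between the guides 0 of 31 against 3.77%. Above 1.2-fold the counts were also 0 of 31 in each comparison, where the background was 14.4%, 14.8% and 14.7%. Names with higher FPKM differed less often, and among those with mean FPKM at least 10 the share above 1.2-fold was 5.21%, 5.06% and 4.98%, against 0 of 28 members. At these shares, and at the 3.55% to 3.8% above 1.5-fold, a group of this size would hold few such genes. A count of 0 there does not set the members apart. The counts above 1.2-fold depend on the scale between libraries. With each library brought to the same FPKM sum, SRSF3 passed 1.2-fold with sgL1ASP #1 (log2 change -0.27), which gives 1 of 31 members against 18.4% of all names, and the other comparisons stayed at 0 of 31. The comparisons share libraries and are not independent of each other.

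**Figure D2:**
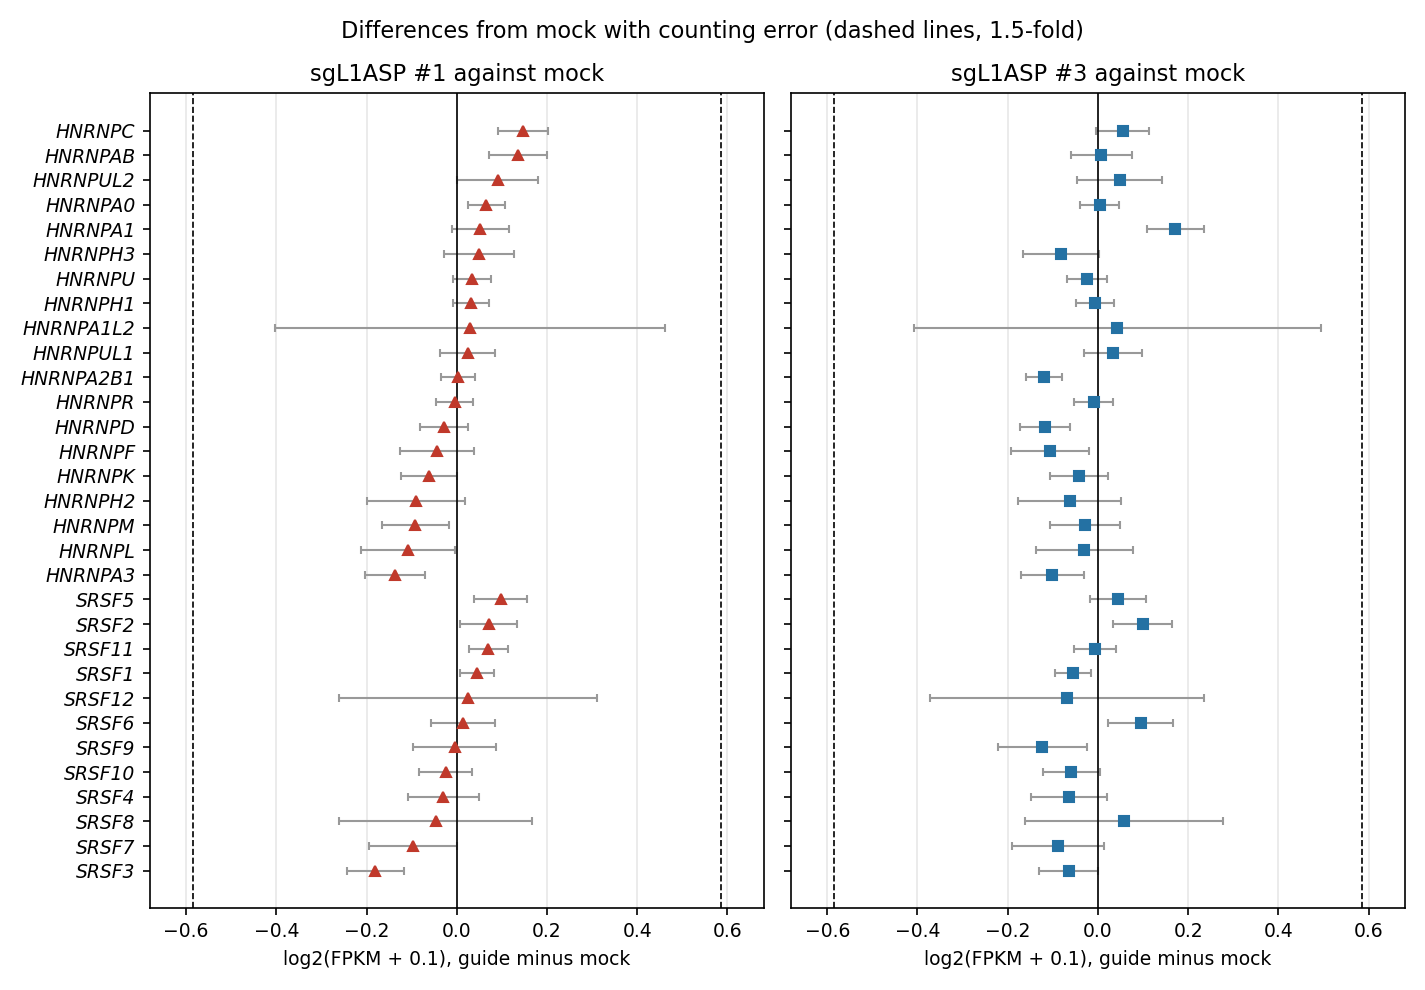
Difference of log2(FPKM + 0.1) from mock for sgL1ASP #1 (left) and sgL1ASP #3 (right) in the 31 members with mean FPKM at least 1, with bars of 2 standard errors that cover counting error only, and dashed lines at 1.5-fold. All points lie between -0.18 and 0.17, inside the dashed lines, and the widest bars belong to HNRNPA1L2, SRSF12 and SRSF8.

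The median log2 change of the 12 SRSF genes was 0.005 with sgL1ASP #1, -0.057 with sgL1ASP #3 and 0.034 between sgL1ASP #1 and sgL1ASP #3. That of 19 HNRNP genes was 0.024, -0.024 and 0.037. Over all 12830 names the medians were 0.001, 0.001 and -0.003. SRSF genes were higher than mock in 6 of 12 cases with sgL1ASP #1 and in 4 of 12 with sgL1ASP #3, and HNRNP genes in 11 of 19 and 7 of 19. Of all 12830 names, 50.3% and 50.4% were higher. The median size of the change, whatever its direction, was 0.049 over 31 members with sgL1ASP #1 and 0.058 with sgL1ASP #3, against 0.094 and 0.095 over all names. At mean FPKM of at least 10 it was 0.057 over 28 members with either guide, against 0.070 and 0.071 over 7231 names. These medians depend on the scale between libraries. When each library was brought to the same FPKM sum, the median of all names moved to -0.092 with sgL1ASP #1 and -0.117 with sgL1ASP #3. Relative to that shift, SRSF genes lay at 0.003 and -0.060, and HNRNP genes at 0.022 and -0.027.

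The largest difference of any member was that of SRSF3 with sgL1ASP #1. Its log2 change was -0.18 with a counting standard error of 0.032, from about 4488 reads in mock and 3922 in sgL1ASP #1, and with sgL1ASP #3 it was -0.07. Its ratio to mock was 0.882 with sgL1ASP #1, and its highest to lowest ratio over the libraries, 1.133, was the widest among the members that passed the filter. SRSF3 is on chromosome 6 from 36562130 to 36573377.

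With sgL1ASP #1 the next largest differences were those of HNRNPC (log2 change 0.15, counting standard error 0.028), HNRNPA3 (-0.14, 0.034) and HNRNPAB (0.14, 0.032). With sgL1ASP #3 the same genes had log2 changes of 0.055, -0.10 and 0.01. With each library brought to the same FPKM sum, HNRNPC and HNRNPAB had log2 changes of 0.05 and 0.04 with sgL1ASP #1, and SRSF3 (-0.27), HNRNPA3 (-0.23), HNRNPL (-0.20) and SRSF7 (-0.19) had the largest. HNRNPC and HNRNPA3 are among the genes with copies elsewhere, and HNRNPAB has none.

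With sgL1ASP #3 the largest difference was that of HNRNPA1, a shuttling hnRNP that antagonizes SR proteins in the choice of 5′ splice sites, on chromosome 12 from 54673977 to 54680872. Its log2 change was 0.17 with a counting standard error of 0.032, and 0.05 with sgL1ASP #1. This order depends on the scale: with each library brought to the same FPKM sum, the log2 change of HNRNPA1 was 0.05, and SRSF9 (-0.24), HNRNPA2B1 (-0.24), HNRNPD (-0.24) and HNRNPF (-0.23) had the largest changes. As deposited, SRSF9 (-0.12, 0.049), HNRNPA2B1 (-0.12, 0.020) and HNRNPD (-0.12, 0.028) followed, and all 3 were lower with sgL1ASP #3 than in mock. With sgL1ASP #1 these 3 genes had log2 changes of -0.004, 0.003 and -0.03.

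Between the guides, on the deposited scale, the 4 largest differences of sgL1ASP #1 from sgL1ASP #3 were those of HNRNPH3 (log2 change 0.13), HNRNPAB (0.13), HNRNPA2B1 (0.12) and HNRNPA1 (-0.12). Under both rescalings SRSF9 took the fourth place in this order, with a log2 change of 0.145 at equal FPKM sums and 0.123 at equal median ratios. The 4 differences as deposited exceed their counting standard errors of 0.042, 0.033, 0.020 and 0.032. They were picked as the largest, so this says little by itself. Without replicates the spread between cultures and between library preparations is not known. HNRNPR, with FPKM 126.5, 126.1 and 125.7, varied least, by a ratio of 1.006.

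**Figure D3:**
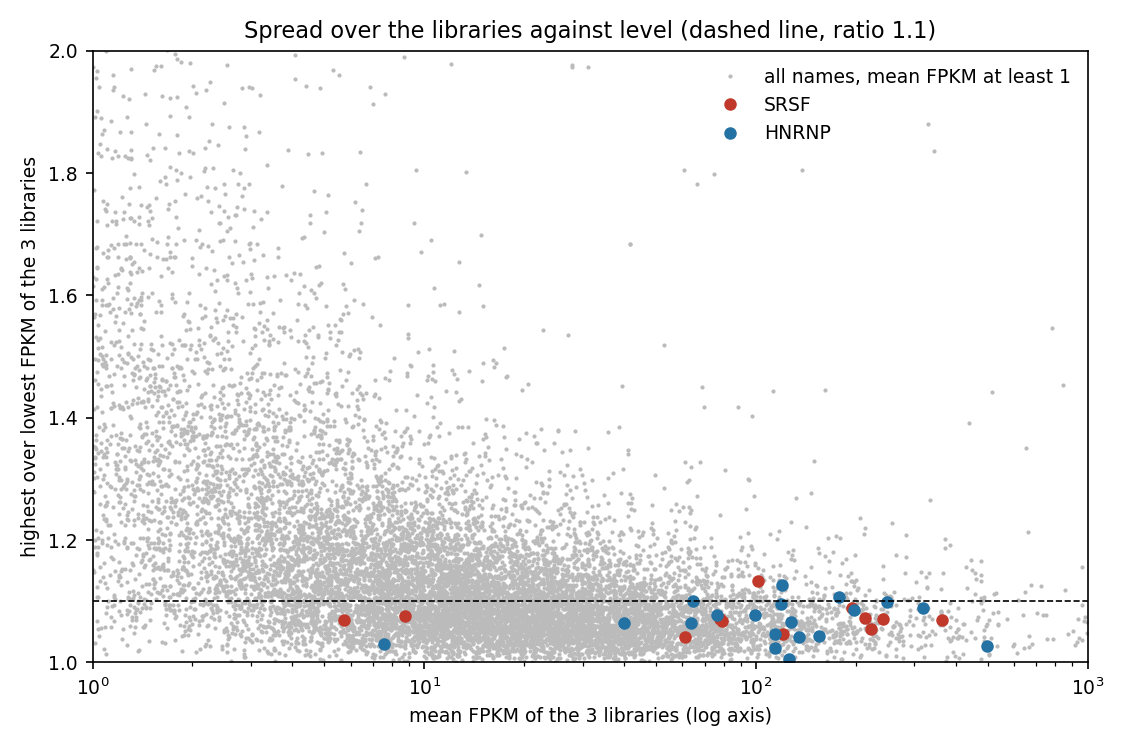
Highest over lowest FPKM of the 3 libraries (y axis) against mean FPKM (log axis) for names with mean FPKM at least 1 (grey), SRSF genes (red) and HNRNP genes (blue), with a dashed line at 1.1. The view ends at a ratio of 2 and a mean FPKM of 1000, which leaves 436 of 12830 names undrawn, and 28 of the 31 members lie under the line, in a range of FPKM where many other names do too.

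A ratio of highest to lowest FPKM under 1.1 was seen for 28 of 31 members (90.3%) and for 43.7% of all names with mean FPKM at least 1. The difference narrowed with the level. It was 89.3% of 28 members against 60.3% of 7231 names at mean FPKM of at least 10. At mean FPKM of at least 100, a limit chosen after the values were seen, it was 17 of 20 members against 70.3% of 861 names, and the median ratio was 1.07 in both. With each library brought to the same FPKM sum, it was 38.7% of 31 members against 29.7% of names. The order of the 32 members was also much the same in all libraries, with 21 genes at the same rank in mock and sgL1ASP #1 and 22 in mock and sgL1ASP #3, and a largest shift of 2 and 4 ranks.

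The partners of these proteins in splicing were followed as 8 lists, of which 103 genes had mean FPKM at least 1. Among them, 1 differed by more than 1.5-fold with sgL1ASP #1 and 2 with sgL1ASP #3, where the share of all names was 3.55% and 3.8%. Above 1.2-fold it was 4.85% and 5.83% of the 103 genes, against 14.4% and 14.8% of all names. At mean FPKM of at least 10, it was 3 of 89 listed genes (3.37%) with either guide, against 5.21% and 5.06% of names, a smaller distance. All list values here and below are on the deposited scale. As with the members, counts above 1.2-fold depend on the scale between libraries, and list counts on another scale are not given. In the lists closest to the members, 0 of 15 SR-related proteins passed 1.2-fold with either guide. SRRM2, the speckle scaffold and the highest of them, had FPKM 233.1 (mock), 250.1 (sgL1ASP #1) and 236.2 (sgL1ASP #3). SRRM1 had the largest log2 change with sgL1ASP #1 (0.14) and ACIN1 with sgL1ASP #3 (0.12).

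Of the 11 kinases and import receptors of SR proteins, which set their phosphorylation and bring them to the nucleus, 10 differed from mock by less than 1.2-fold under either guide. The remaining 1 of 11, with sgL1ASP #3, is not above the 14.8% of all names. SRPK3, the muscle SR protein kinase, had FPKM 1.33 (mock), 1.14 (sgL1ASP #1) and 0.703 (sgL1ASP #3), about 24, 21 and 11 reads, and a log2 change of -0.83 with sgL1ASP #3 with a counting standard error of 0.53. CLK1, an SR protein kinase of the nucleus and the highest of the list, had FPKM 80.2, 83.3 and 79.1.

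Of 14 hnRNP proteins whose gene names do not begin with HNRNP, 1 passed 1.2-fold with sgL1ASP #1 and 0 with sgL1ASP #3. This is not above the 14.4% and 14.8% of all names, which were 5.21% and 5.06% at mean FPKM of at least 10. In so short a list 1 gene does not set it apart from either share. CIRBP, a cold-inducible RNA-binding protein and the highest of the list, had FPKM 258.8 (mock), 312.8 (sgL1ASP #1) and 277.0 (sgL1ASP #3), and its log2 change with sgL1ASP #1 was 0.27 with a counting standard error of 0.021. PCBP3 had the largest log2 change with sgL1ASP #3 (0.20). HNRPDL, an older name of HNRNPDL, had FPKM 84.7, 85.1 and 83.3.

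On the deposited scale the proteins of the spliceosome itself showed similar values. With sgL1ASP #1, 0 of 12 snRNP core proteins, 0 of 14 proteins of 3′ splice site recognition and 0 of 14 tri-snRNP and catalytic proteins passed 1.2-fold. With sgL1ASP #3 it was 0, 1 and 0. Beside the 5.21% and 5.06% of all names at mean FPKM of at least 10, lists of this size would hold about 1 such gene or fewer, so these counts do not set the lists apart. SNRPD2, an Sm ring protein, had FPKM 609.6 (mock), 615.2 (sgL1ASP #1) and 618.7 (sgL1ASP #3), U2AF1, the small subunit that reads the AG of the 3′ splice site, had 281.1, 268.5 and 267.2, and PRPF8, at the heart of the spliceosome, had 117.7, 114.0 and 116.9. The largest log2 changes in these 3 lists were those of SNRPB2 (0.16), U2AF1L4 (-0.21) and SNRNP40 (-0.20) with sgL1ASP #1, and of SNRPE (0.19), U2AF1L4 (-0.41) and DHX38 (0.18) with sgL1ASP #3. U2AF1L4 had about 142, 121 and 89 reads.

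Among 10 factors of NMD, the pathway that removes the poison exon transcripts, SMG9 differed most with sgL1ASP #1 and UPF2 with sgL1ASP #3. Each was the only one past 1.2-fold on the deposited scale, which is not above the 14.4% and 14.8% of all names. Both genes had mean FPKM of at least 10, where 5.21% and 5.06% of names passed. In so short a list 1 gene does not set it apart from either share. SMG9, a regulator of the kinase SMG1, had FPKM 17.3 (mock), 12.9 (sgL1ASP #1) and 15.5 (sgL1ASP #3), and a log2 change of -0.42 with sgL1ASP #1 (counting standard error 0.072). UPF2 had FPKM 13.8, 12.6 and 11.4, and a log2 change of -0.27 with sgL1ASP #3. SMG5, the highest of the list, had 94.2, 89.8 and 93.8.

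Of the 24 tissue-restricted splicing regulators listed, 11 had mean FPKM under 1, among them the epithelial ESRP1 and ESRP2 and the neuronal SRRM4, ELAVL3, ELAVL4 and NOVA2. Other genes known from neurons were above it, with mean FPKM 4.81 for RBFOX3, 3.93 for ELAVL2 and 1.27 for NOVA1. KHDRBS1, which is expressed widely, was highest, with FPKM 212.5 (mock), 222.9 (sgL1ASP #1) and 219.5 (sgL1ASP #3). Of the 13 with mean FPKM at least 1, 3 passed 1.2-fold with each guide, NOVA1, CELF5 and KHDRBS3 with sgL1ASP #1 and NOVA1, RBFOX3 and KHDRBS3 with sgL1ASP #3. Of all names 14.4% and 14.8% did, which for 13 genes is about 2, so the count is near the background. NOVA1, a neuronal regulator, had the largest log2 change with sgL1ASP #1 among the 103 genes of the lists with mean FPKM at least 1. Its FPKM was 2.03 (mock), 0.572 (sgL1ASP #1) and 1.21 (sgL1ASP #3), about 144, 40 and 72 reads. Its log2 change was -1.67 with sgL1ASP #1 and -0.70 with sgL1ASP #3, with counting standard errors of 0.26 and 0.21. Its relative NOVA2, below that filter, had FPKM 0.114, 0.520 and 0.412, about 9, 42 and 28 reads, and was higher than mock with both guides.

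Filament genes known from the line were present in every library. VIM had FPKM 807.4 (mock), 903.5 (sgL1ASP #1) and 862.2 (sgL1ASP #3), KRT8 had 68.1, 66.9 and 73.2, and NEFL, a neuronal filament gene known to be expressed in this line, had 9.17, 9.61 and 9.08. The kidney factor PAX2 was low, at 0.522, 0.654 and 0.658, and LHX1 had FPKM 1.476, 1.765 and 1.634. PTPRC, CD3E and HBB of blood cells and COL1A2 and DCN of fibroblasts are listed at 0 in all libraries, while APOA1 had FPKM 5.39, 3.36 and 3.82 and COL1A1 2.55, 1.99 and 2.46. LUM of fibroblasts had FPKM 0.199, 0 and 0.12, and ALB of liver had 0.467, 0.284 and 0.337.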

How the data were processed

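Total RNA of the 3 cultures was made into stranded mRNA libraries and sequenced as single-end reads of 75 bases. Per the labels, the reads were mapped to hg19, and the authors' tools included TopHat2 2.0.13, Bowtie2 2.2.3, SAMtools 0.1.19 and Cufflinks 2.2.1, whose Cuffdiff gave the deposited FPKM per gene in strand-specific mode. The annotation, the assignment of reads with several matches and the scaling between libraries are not given in the sources used here. Read counts are not part of the files, and 0 value columns belonged to no sample.

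FPKM were used as deposited. Differences were taken on log2(FPKM + 0.1) among names with mean FPKM at least 1. With 1 library per group no test was run, and called genes are those past 1.5-fold or 1.2-fold. The members and lists were chosen with earlier results of these data known. Full values are given for the 6 highest genes of each family, for members under FPKM 1, and for the 4 largest changes per comparison; of each related list, the highest gene and the largest change are named. Other members are given as context. HNRPLL is counted among the hnRNP proteins whose gene names do not begin with HNRNP. Its values are not given, because it could not be settled whether its row is the record meant by HNRNPLL. All members were placed in GENCODE 44 on GRCh37, with 19258 of all 23284 names (82.7%). Depth was read from genes with 1 transcript over 1000 bases (955, 1001 and 954 genes), after taking 200 bases from the transcript length. For each gene the depth at which its FPKM stands for 1 read was found. The most common of these depths above a set lower limit was taken (21, 45 and 29 genes lie in this peak). This assumes that the genes in the peak hold 1 read each. The fold count was tested on simulated data. A planned count of arginine-serine repeats in the proteins was not made. The coding sequence of 1 pair of genes is not reported here. Python 3.11.15, NumPy 2.4.6, pandas 2.3.3, SciPy 1.17.1, Biopython 1.88, pysam 0.24.0 and matplotlib 3.10.9 were used.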

Additional observations from a re-analysis of the deposited data

How the results depend on the processing

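No paired analysis was possible because each group has a single library, and leaving out a library leaves a group empty. The counts of members past 1.5-fold were 0 in all 3 comparisons under every alternative run, which were pseudocounts of 0.01 and 1, no filter, mean FPKM at least 10, both rescalings, 1.2-fold and 2-fold thresholds, and leaving out HNRNPA1L2 and HNRNPCL1. From a main count of 0, the 2-fold threshold, the stricter filter and leaving out genes could only give 0, so these runs show nothing further. Lifting the filter adds only HNRNPCL1, whose FPKM is far below the pseudocount of 0.1. Rescaling to an FPKM sum of 1000000 moved the SRSF median log2 change to -0.088 with sgL1ASP #1 and -0.177 with sgL1ASP #3, and the HNRNP median to -0.069 and -0.144, so that both medians with sgL1ASP #1 turned from above to below 0. The same rescaling moved the median of all names by -0.092 and -0.117. It also moved 32 of 48 log2 changes of named members by more than 2 counting standard errors, and the share of members with a highest to lowest ratio under 1.1 to 38.7%. The count of members past 1.2-fold with sgL1ASP #1 became 1 (SRSF3). Scaling by the median ratio over expressed names moved none of these. When only names with FPKM under 1000 in every library were summed, SRSF genes made up 0.431%, 0.430% and 0.421% of mock, sgL1ASP #1 and sgL1ASP #3, and HNRNP genes 0.721%, 0.715% and 0.696%. The alternatives for the highest to lowest ratio and for the counts past 1.2-fold were chosen after seeing the data. With fragments of 150 and 250 bases the estimated depth of mock was 10100000 and 10800000 reads. At these depths a member at FPKM near 100 has a counting error of a few percent, while SRSF8, SRSF12 and HNRNPA1L2 have too few reads to show a difference of that size.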

Other observations

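The names that the rule left out include neighbours of the members. HNRNPU-AS1, the antisense gene beside HNRNPU, had FPKM 34.9 (mock), 33.8 (sgL1ASP #1) and 31.9 (sgL1ASP #3). HNRNPUL2-BSCL2, a readthrough gene, had FPKM 36.3, 39.6 and 37.5, next to 38.8, 41.3 and 40.1 for HNRNPUL2, and 45.1% of the 75-base stretches of HNRNPUL2 also lie in transcripts of that readthrough gene. How reads were divided between these genes was not tested. The pseudogenes HNRNPA1P10 and HNRNPKP3 are listed at 0 in every library. HNRNPA3P1 had FPKM 0.102 (mock) and 0.103 (sgL1ASP #1), and its entry for sgL1ASP #3 is 0.

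In GENCODE, the exons of SRSF1, SRSF2, SRSF6, SRSF9, HNRNPA1L2, HNRNPA3, HNRNPH2, HNRNPK, HNRNPL and HNRNPUL2 overlap exons of another gene on the same strand. SRSF2 carries MIR636, HNRNPK carries MIR7-1 and HNRNPH2 shares exons with RPL36A-HNRNPH2. Genes of the members range from 1343 bases on the genome in HNRNPA1L2 to 60359 in HNRNPC, and HNRNPA0 is a single exon of 8713 bases.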
